A study of Schizosaccharomyces pombe with 5 samples.

Results

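The regions described here are all 128 peaks that were called on 1 CLIP-Seq library of Mei2-TAP fission yeast against 1 library of untagged cells, out of 268 peaks in both lists of the series. They were taken as the whole deposited list, so each peak had already passed a comparison of Mei2-TAP with untagged, and a high ratio of the libraries is what chose the peaks and not a finding about them. CLIP-Seq sequences the RNA that stays with a protein after UV crosslinking, lysis and immunoprecipitation through a tag. The Mei2-TAP strain was homothallic h90 Schizosaccharomyces pombe carrying a TAP tag at the C terminus of Mei2, and the untagged strain was h90 with no TAP tag. The Msa1-TAP list is used only for its overlap with these peaks and for the untagged total, and its strain was h90 with the TAP tag on Msa1, starved for the same labelled time. By the growth protocol, cells were grown at 30 °C on YES medium and moved to ME medium, which is poor in nitrogen, where the sample labels give 4 h of starvation. The growth protocol lists 4, 5 and 6 h, and the methods of the study describe pooled samples, and give different temperatures for immunoprecipitation cultures, so the exact time and temperature behind a library are not settled. Another Mei2-TAP library was labelled as a replicate, but the list rests on 1 tagged and 1 untagged library, so no value below has a replicate check and no test between libraries was possible.

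Mei2 is the RNA-binding protein that switches S. pombe cells from growth to meiosis. It gathers with meiRNA, a long non-coding RNA made by the gene sme2, at a dot in the nucleus that also takes up Mmi1, the YTH-family protein that marks meiotic transcripts for removal in growing cells. Mmi1 reads a short core sequence, TNAAAC in DNA letters with the N being T, C or G, that is repeated in meiRNA and in its meiotic target transcripts.

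The sequences below show what lay under the peaks that the results turn on, in the strand of the named gene from 5′ to 3′. Capitals mark the Mmi1 core letters, and positions are on the RefSeq ASM294v3 chromosomes, which are the same sequence versions as the ASM294v2 build of the files. The first is the stretch of sme2 under the meiRNA peak that holds the most core letters (chrII:339346-339495, minus strand), with 5 matches in 150 nt.
meiRNA: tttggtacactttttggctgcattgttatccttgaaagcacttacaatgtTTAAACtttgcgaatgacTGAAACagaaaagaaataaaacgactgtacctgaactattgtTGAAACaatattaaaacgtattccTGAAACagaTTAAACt
The study's qPCR primers for sme2 lay inside the same peak, the forward one at chrII:339610-339628 on the minus strand and the reverse one at chrII:339469-339488 on the plus strand.
sme2-RT-F: ccccaagttggtttatgtg
sme2-RT-R: aacaatgcagccaaaaagtg

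Short stretches around the first core match are shown for 3 deep peaks on mRNAs. They lay in the 5′ UTR of mmi1 (chrIII:340033-340062, minus strand), in the 5′ UTR of rep2 (chrII:1717995-1718024, plus strand) and in the coding exon of tif51 (chrI:4141726-4141755, minus strand).
mmi1: taaagtgttttaTTAAACatTCAAACatta
rep2: aacaggagtgatTGAAACtatcgtttttgg
tif51: tgcccccagctcTTAAACtttTGAAACttg
The mmi1 and tif51 stretches each held 2 matches within 30 nt, and the rep2 stretch held 1.

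A longer stretch is shown for the wide peak over the coding exons of mmi1 (chrIII:339110-339259, minus strand) and for the non-coding RNA nc-tgp1 (chrII:353265-353414, minus strand), each with 2 matches.
mmi1 coding exon: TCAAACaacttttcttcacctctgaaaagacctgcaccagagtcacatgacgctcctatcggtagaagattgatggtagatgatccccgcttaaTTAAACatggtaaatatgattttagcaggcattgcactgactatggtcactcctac
nc-tgp1: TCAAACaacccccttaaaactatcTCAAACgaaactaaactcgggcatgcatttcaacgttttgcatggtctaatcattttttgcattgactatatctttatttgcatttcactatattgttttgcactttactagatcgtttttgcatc

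The last set shows high-ratio or deep peaks whose printed stretch held 0 core letters on that strand. They are the coding part of the tim23 peak, which begins at the start codon (chrIII:886596-886733, minus strand), the ubc7 peak, which lay wholly in an intron (chrII:1906155-1906355, plus strand), the centre of the peak in the coding exon of mug110 (chrII:3453951-3454100, minus strand) and the centre of the deeper peak on SPBP23A10.11c (chrII:2020217-2020366, minus strand).
tim23: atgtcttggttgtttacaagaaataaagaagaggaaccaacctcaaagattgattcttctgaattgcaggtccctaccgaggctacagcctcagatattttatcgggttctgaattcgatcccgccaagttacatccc
ubc7: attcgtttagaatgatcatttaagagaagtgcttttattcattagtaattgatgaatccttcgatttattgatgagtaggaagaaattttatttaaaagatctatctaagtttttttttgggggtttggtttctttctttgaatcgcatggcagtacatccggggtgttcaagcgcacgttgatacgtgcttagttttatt
mug110: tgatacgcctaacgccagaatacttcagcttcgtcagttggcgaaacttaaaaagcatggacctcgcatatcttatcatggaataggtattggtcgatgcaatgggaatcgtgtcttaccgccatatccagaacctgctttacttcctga
SPBP23A10.11c: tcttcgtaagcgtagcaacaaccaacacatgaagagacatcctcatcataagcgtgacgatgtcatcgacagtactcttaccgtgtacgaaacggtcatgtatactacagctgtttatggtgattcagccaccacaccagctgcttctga

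The libraries held 194019 Mei2-TAP tags and 252537 untagged tags, as recovered from the scaled and unscaled columns of the lists. A tag is a read pair, with 0.5 for each read. The 128 peaks together held 11097 Mei2-TAP tags, which was 5.72% of that library, and 1546.5 untagged tags, which was 0.612% of that one. Ratios given here are Mei2-TAP over untagged after each library was divided by its total, with the exact Clopper-Pearson 95% interval. Because reads were amplified and not marked as single molecules, these intervals cover counting error only. In 13 peaks the untagged value was 0.5 tags, the lowest value in the list, and no peak was at 0. For these 13, a floor of 3 untagged tags was used, and the fold is written as "at least" that value. It takes the Mei2-TAP tags as counted, and in all 13 the lower end of the 95% interval lay below it. Where such a fold is given, that end follows as "interval from". Peaks with more than 0.5 untagged tags kept the ratio as measured, also where these tags were below 3.

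Most of the signal sat in few peaks, and most peaks were shallow. A peak held a median of 13.25 Mei2-TAP tags and 3 untagged tags, with quartiles of 10.5 and 24.75 Mei2-TAP tags. The meiRNA peak alone took 47.6% of the Mei2-TAP tags in peaks and 5.14% of the untagged tags in peaks. The non-coding RNA prl53 and the U14 snoRNA gene snoU14 together took another 21.0% of the Mei2-TAP tags in peaks, but 47.6% of the untagged tags in peaks. The remaining peaks thus shared a small part of each library, and the plot of tags by library shows most of them as a dense group below 30 Mei2-TAP tags.

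**Figure D1:**
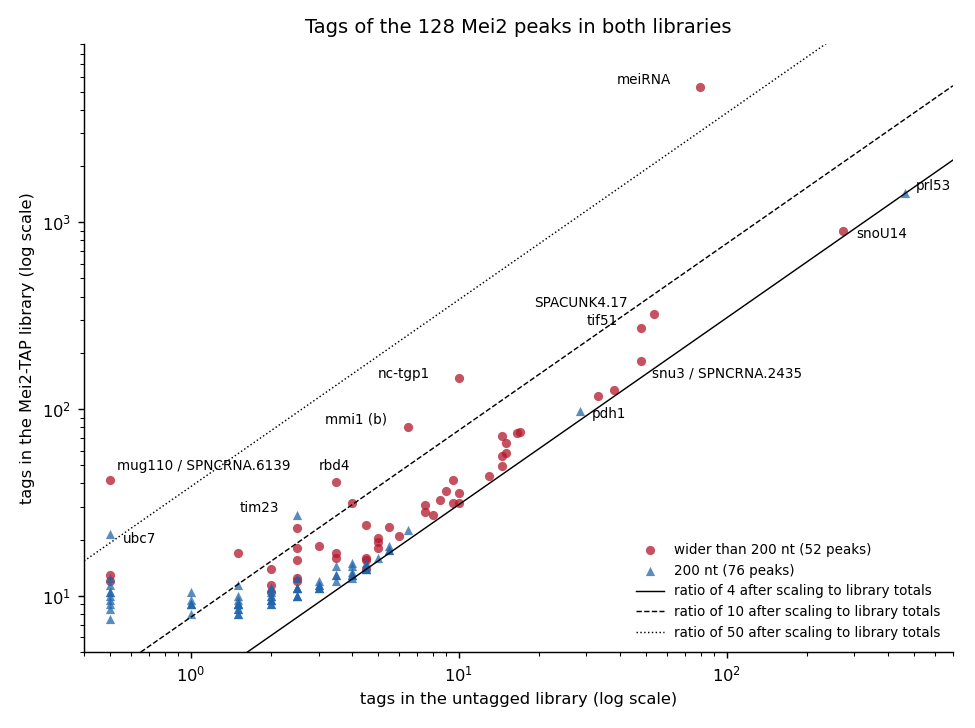
Mei2-TAP tags (y axis, log scale) against untagged tags (x axis, log scale) of each of the 128 peaks, with peaks wider than 200 nt as circles, 200 nt peaks as triangles, and lines at ratios of 4, 10 and 50 after scaling to library totals. meiRNA, with 5277.5 Mei2-TAP tags and 79.5 untagged tags, lies above the line at 50, while prl53 and snoU14 lie next to the line at 4.

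The median ratio was 5.86, or 5.41 with the 13 peaks at their lower bound, and the quartiles were 4.71 and 8.11. The interval lay wholly above 2 in 47 of the 128 peaks, which is 36.7%, and wholly above 4 in 8, which is 6.25%. Both limits stand on the same contrast that chose the list, so these shares describe how firmly the counts fix each ratio. Without the 13 peaks at 0.5 untagged tags, the counts were 37 and 6. Near the lower edge of the list, 26 peaks had a ratio under 4.5, and the lowest was prl53 at 4.01 (3.60 to 4.46). Next came the peaks over rps102, int6, apl3 and qcr6, each with 14 Mei2-TAP tags and 4.5 untagged tags, at 4.05 (1.33 to 15.4). Peaks that fell just outside the limit are not in the list.

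The 3 deepest peaks lay on non-coding RNAs, and so did others of the 10 deepest. meiRNA had 5277.5 Mei2-TAP tags against 79.5 untagged tags, a ratio of 86.4 (69.2 to 109). prl53, a polyadenylated non-coding RNA, had 1426.5 Mei2-TAP tags against 463.5 untagged tags, and snoU14 had 899.5 against 273. Within the list, these 2 peaks held the most untagged tags, above meiRNA, and their ratios of 4.01 and 4.29 were among the lowest. The peak over SPNCRNA.2435 and snu3, a U3 snoRNA gene, had 181 Mei2-TAP tags against 48 untagged tags, and snR30, a snoRNA needed for rRNA processing, had 118 against 33. SPNCRNA.2052, a non-coding RNA on the other strand from SPAC11D3.01c, had 126 Mei2-TAP tags against 38 untagged tags, a ratio of 4.32 (2.98 to 6.38). By contrast nc-tgp1, a transcript that runs into the phosphate-regulated gene tgp1, had 147 Mei2-TAP tags against only 10 untagged tags, a ratio of 19.1 (10.1 to 40.7).

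Of the mRNA genes, SPACUNK4.17, which encodes a predicted NAD-binding dehydrogenase, and tif51, which encodes the translation factor eIF5A, came first in depth. SPACUNK4.17 had 321 Mei2-TAP tags against 53.5 untagged tags, a ratio of 7.81 (5.83 to 10.6). tif51 had 270.5 Mei2-TAP tags against 48 untagged tags, a ratio of 7.34 (5.38 to 10.2). Both peaks covered more than 90% of the annotated gene. The 3′ UTR of pdh1, with 97.5 Mei2-TAP tags against 28.5 untagged tags, gave the deepest 200 nt peak on a coding gene, at a ratio of 4.45 (2.91 to 7.02). The 5′ UTR of srk1, which encodes a kinase activated by stress MAPK signalling, had 75.5 Mei2-TAP tags against 17 untagged tags, a ratio of 5.78 (3.38 to 10.4). The 5′ UTR of rep2, which encodes an activator subunit of the MBF transcription complex, had 74.5 Mei2-TAP tags against 16.5 untagged tags, a ratio of 5.88 (3.41 to 10.7).

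A group of peaks combined moderate depth with very few untagged tags. The peak over mug110, a gene upregulated in meiosis, also lay over SPNCRNA.6139 on the other strand. It had 41.5 Mei2-TAP tags against 0.5 untagged tags, which is at least 18.0-fold (interval from 11.0). The intronic peak in ubc7, a ubiquitin-conjugating enzyme of ER-associated degradation, had 21.5 Mei2-TAP tags against 0.5 untagged tags, at least 9.33-fold (interval from 5.43). The peak on rbd4, a rhomboid-family protease, had 40.5 Mei2-TAP tags against 3.5 untagged tags, a ratio of 15.1 (5.15 to 65.2). These 3, with meiRNA, nc-tgp1, the 5′ UTR of mmi1, SPACUNK4.17 and tif51, made up the 8 peaks whose interval lay wholly above 4. The tim23 peak, at the start codon of a subunit of the mitochondrial inner membrane translocase, came next, with 27 Mei2-TAP tags against 2.5 untagged tags, a ratio of 14.1 (3.97 to 89.4). Of the 8 peaks with an interval wholly above 4, 7 lay over annotated genes on both strands and 0 over a single gene. For those 7, the named gene gives the place and not the RNA.

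**Figure D2:**
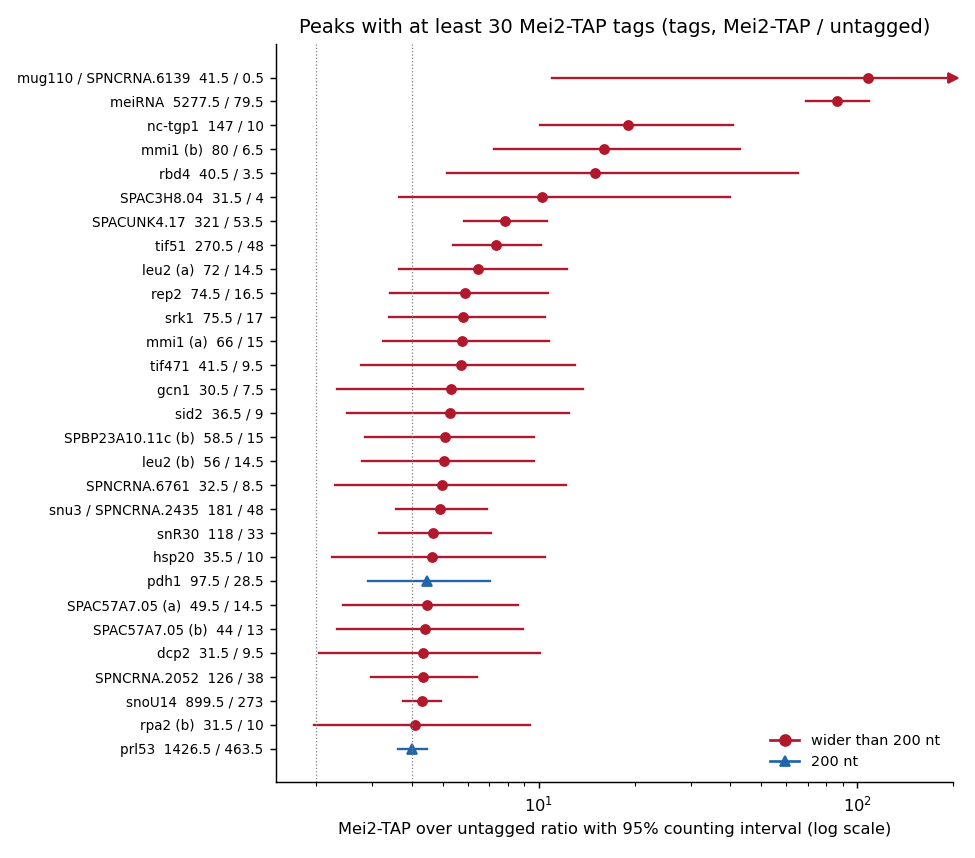
Ratio of Mei2-TAP over untagged (x axis, log scale) with its 95% counting interval for the 29 peaks with at least 30 Mei2-TAP tags, labelled with the tags of Mei2-TAP and then untagged; circles are peaks wider than 200 nt, triangles are 200 nt peaks, dotted lines mark ratios of 2 and 4, and the arrow marks an interval that runs off the axis. Of the 29 intervals, all but that of the rpa2 peak lie wholly above 2, and those of snoU14 and prl53 are narrow and cover 4.

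The list carries no strand, since all 128 peaks are given on the plus strand. Of the peaks, 76 lay over annotated genes on both strands, so the gene named for these gives the place and not the RNA. Only 49 peaks lay over a single annotated gene. Among the deep ones, 11 did so: prl53, snoU14, snR30, srk1, SPBP23A10.11c, a pair on SPAC57A7.05, tif471, hsp20, dcp2 and rpa2. The peaks over a single gene had a median of 15.5 Mei2-TAP tags and a median ratio of 4.86, against 12.25 tags and 6.18 for those over both strands. With bounds, the median ratios were 4.62 and 5.79. In 5 peaks less than 50% of the bases lay in the assigned gene. The overlap was below 10% for the pma2, uvi15 and the second sts5 peak, which lie almost wholly beside those genes.

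Wide and 200 nt peaks differed in depth far more than in ratio. A width of 200 nt was the smallest in the list and was shared by 76 peaks, while 52 peaks were wider, 33 of them beyond 300 nt and 4 beyond 1000 nt. Wide peaks had a median width of 315 nt. They held a median of 31 Mei2-TAP tags and 6.25 untagged tags, and 200 nt peaks held 11 and 2.25. Per kb of peak the medians were 67.9 Mei2-TAP tags in wide peaks and 55.0 in 200 nt peaks, so that wide peaks held 2.82 times as many tags but only 1.24 times as many per kb. The median ratios were 5.75 for wide peaks and 6.02 for 200 nt peaks, with quartiles of 4.68 and 8.04 for wide peaks and of 4.76 and 8.35 for 200 nt peaks, which overlap almost wholly. With the peaks at 0.5 untagged tags at their bounds, the medians were 5.66 for wide peaks and 5.21 for 200 nt peaks. The interval lay wholly above 2 in 37 of the 52 wide peaks and in 10 of the 76 of 200 nt, at the greater depth of the wide peaks. Among peaks with at least 10 Mei2-TAP tags, the median ratio of wide peaks was 1.15 times that of 200 nt peaks, against 0.956 times over all peaks, so the order of the medians turned with this limit too. Peaks of 1 library are not replicates, so these differences carry no test. Both groups passed the same call on the ratio, whose lowest value was 4.05 in wide peaks and 4.01 in 200 nt peaks. How far this limit drew the median ratios together was not tested. Across the 128 peaks the rank correlation of width with tags was 0.74, and with tags per kb 0.32, and the peaks share both libraries and the caller.

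**Figure D3:**
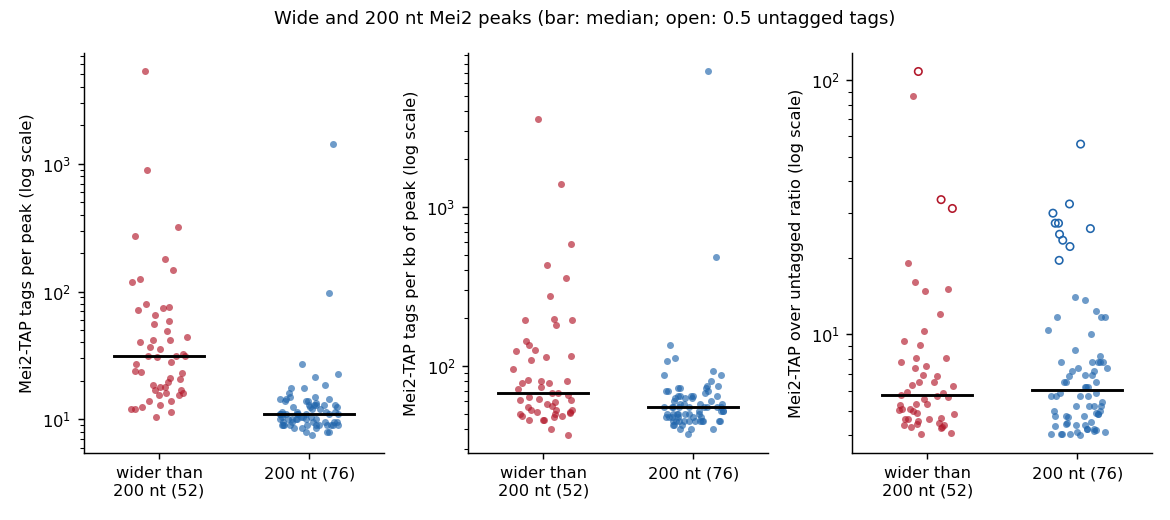
Mei2-TAP tags per peak, Mei2-TAP tags per kb of peak and the Mei2-TAP over untagged ratio (y axes, log scale) for the 52 peaks wider than 200 nt and the 76 peaks of 200 nt; each point is a peak, bars are medians, and open points have 0.5 untagged tags. The tag medians lie at 31 and 11, while the ratio medians lie at 5.75 and 6.02.

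The 10 widest peaks were led by meiRNA at 3769 nt, which ran from 653 nt inside the 3′ side of sme2 across the whole of aga1. SPACUNK4.17 followed at 1654 nt, nc-tgp1 at 1178 nt, the coding exons of mmi1 at 1084 nt and tif51 at 976 nt. The second leu2 peak was 853 nt wide, rbd4 841 nt, sid2 734 nt, the first leu2 peak 663 nt and rep2 656 nt. Depth per kb among these spanned 48.2 for rbd4 to 1400.2 for meiRNA, so a wide peak was not always a dense one. The sid2 peak, on the kinase that triggers septation, was 734 nt wide with 36.5 Mei2-TAP tags against 9 untagged tags, or 49.7 Mei2-TAP tags per kb. That density is below the median of 200 nt peaks. The densest regions were on prl53, a 200 nt peak with 7132.5 Mei2-TAP tags per kb, and on snoU14, a 250 nt peak with 3598.0.

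By position, 57 of the 76 peaks of 200 nt and 33 of the 52 wide peaks had their midpoint in coding exons. The 3′ UTR held 9 of the 200 nt peaks and 2 of the wide ones, whereas the 5′ UTR held 2 of the 200 nt peaks and 4 of the wide ones. Non-coding exons held 11 wide peaks and 6 of 200 nt. Over both widths, 90 peaks on coding genes lay in coding exons, 11 in the 3′ UTR, 6 in the 5′ UTR and 4 in introns. These counts follow the assigned gene. The meiRNA peak, assigned to aga1, is therefore among the coding exons. The mug110 peak, assigned to SPNCRNA.6139, is among the non-coding exons. The 6 peaks in 5′ UTRs, among them those on mmi1, srk1, rep2, aim29 and cyr1, had a median of 46.25 Mei2-TAP tags, against 12.75 for peaks in coding exons and 11.5 for peaks in 3′ UTRs. The intron peaks were those on ubc7, rbd4, SPBC609.01 and mug161, and when the part with the most bases was taken instead of the midpoint, 2 peaks remained in introns. All 4 lay over annotated genes on both strands, so the strand of the RNA behind them is not known.

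Deep peaks, taken as those with at least 30 Mei2-TAP tags, numbered 29 and held 88.3% of the Mei2-TAP tags in peaks and 82.3% of the untagged tags in peaks. The other 99 peaks held 11.7% and 17.7%. Of the deep peaks, 27 were wide, the exceptions being prl53 and pdh1. Among the 99 shallow peaks, 25 were wide and 74 were 200 nt. Median ratios were 5.28 for deep peaks and 6.18 for shallow ones, or 5.28 and 5.56 with the peaks at 0.5 untagged tags set to their bounds. The median lower bound of the interval was 3.23 for deep peaks and 1.5 for shallow ones. The rank correlation of Mei2-TAP tags with the ratio was -0.33 across the 128 peaks, which share both libraries and the caller's lower limit.

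The shallow peaks took few distinct values. The 99 of them had 68 distinct combinations of Mei2-TAP and untagged tags. The commonest, 9 Mei2-TAP tags against 1.5 untagged tags, was shared by tcb3, dhp1, ckb2, gnr1 and yme1, with a ratio of 7.81 (1.39 to 123). The peaks over prm1, kap109, cyr1 and tcb1 shared 11 Mei2-TAP tags against 2.5 untagged tags, a ratio of 5.73 (1.39 to 39.2). The order of such peaks by ratio is therefore an order of single reads. The 24 peaks below 10 Mei2-TAP tags had a median ratio of 7.81, or 7.38 with those at 0.5 untagged tags at their bounds, and the interval of 1 of them, uvi15, lay wholly above 2. The fewest tags lay on fus1, with 7.5 Mei2-TAP tags against 0.5 untagged tags. The peaks on ync13 and msp1 had 8 against 1.5 each, and SPBP8B7.32 had 8 against 1.

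The 69 peaks with at least 3 untagged tags held 93.8% of the Mei2-TAP tags in peaks. In the other 59 peaks the untagged value was below 3 tags, and the ratio moves by large steps with each read of the untagged library.

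The peaks were assigned to 117 genes, 0.928% of the 12606 annotated nuclear genes, by longest overlap on either strand. Of these, 100 were coding, 1.96% of the 5113 coding genes, and they carried 111 peaks. Another 15 peaks fell on long non-coding RNAs and 2 on snoRNA genes. mei2 itself lay under no peak. Chromosome I held 51 peaks, chromosome II 48 and chromosome III 29, or 9.14, 10.6 and 11.8 per Mb. The coding genes with a peak had a median spliced length of 2514 nt, against 1683 nt for all coding genes, and 35.0% of them held an intron, against 48.3% of all coding genes. Longer transcripts offer more bases to a peak, and this was not adjusted for.

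Of the 117 genes, 9 carried more than 1 peak, all of them coding, with 20 peaks in all. SPAC57A7.05 and nmd5 carried 3 and the other 7 carried 2. Gaps between peaks of 1 gene ran from 300 to 2904 nt. The genes had a median annotated length of 3832 nt, including introns and UTRs.

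mmi1 held the most tags of the 9, with 146 Mei2-TAP tags against 21.5 untagged tags over both of its peaks. Its peak at the 5′ end had 80 Mei2-TAP tags against 6.5 untagged tags, a ratio of 16.0 (7.24 to 42.9), and the peak 342 nt further on, over coding exons, had 66 against 15, a ratio of 5.73 (3.23 to 10.8). Per kb of peak, Mei2-TAP had 181 and 60.9 tags at these places and untagged had 14.7 and 13.8. SPNCRNA.6803, on the other strand, also lay under both.

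leu2, an enzyme of leucine synthesis, had 72 Mei2-TAP tags against 14.5 untagged tags in a peak at its 5′ end and 56 against 14.5 in a peak 306 nt further on. The ratios were 6.46 (3.64 to 12.3) and 5.03 (2.78 to 9.67), with widely overlapping intervals. set2, the histone H3 lysine methyltransferase that travels with elongating RNA polymerase, had 24 Mei2-TAP tags against 4.5 untagged tags in its upstream peak and 28 against 7.5 in its downstream peak. Only the set2 gene lay under these 2 peaks, and the intervals of 2.50 to 25.1 and 2.12 to 12.7 overlapped.

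SPBP23A10.11c, which encodes a predicted 1,3-beta-glucanase, was uneven. Its upstream peak had 58.5 Mei2-TAP tags against 15 untagged tags, a ratio of 5.08 (2.84 to 9.64). The downstream peak had 12 against 0.5, at least 5.21-fold (interval from 2.80). SPAC57A7.05, an uncharacterized gene 6521 nt long, had 12.5 Mei2-TAP tags against 4 untagged tags, 44 against 13 and 49.5 against 14.5 in its peaks from upstream to downstream. The ratios were 4.07 (1.25 to 17.2), 4.41 (2.33 to 8.92) and 4.44 (2.44 to 8.61), all near the lowest ratio of the list, 4.01. All 3 peaks lay in the downstream part of the gene. rpa2, a core subunit of RNA polymerase I, had 9.5 Mei2-TAP tags against 2 untagged tags upstream and 31.5 against 10 in its 3′ UTR.

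The 3 remaining genes had only shallow 200 nt peaks. nmd5, a karyopherin, had 13 Mei2-TAP tags against 4 untagged tags, 9.5 against 2 and 14.5 against 4 in peaks spread along the gene. fus1, the formin that builds the actin focus for cell fusion, had 7.5 Mei2-TAP tags against 0.5 untagged tags upstream and 9.5 against 1.5 further downstream, 2431 nt apart. sts5, a Dis3L2-like protein, had 9 Mei2-TAP tags against 2 untagged tags inside the gene, while its second peak, 10.5 against 1, touched only the end of the annotated 3′ UTR.

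**Figure D4:**
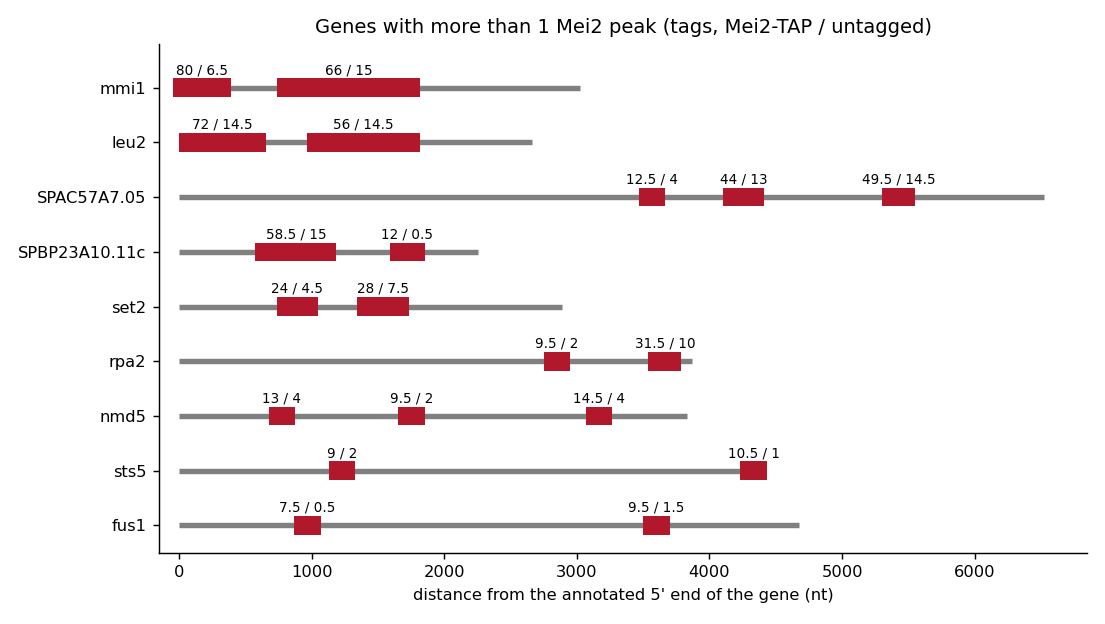
The 9 genes with more than 1 peak, drawn as grey lines from the annotated 5′ end (x axis, nt), with peaks as red bars and the tags of Mei2-TAP and then untagged above each. mmi1 has the most Mei2-TAP tags over its peaks, 146, and the peaks of SPAC57A7.05 lie in its downstream part.

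Other peaks sat close together without sharing a gene. On chromosome II, the transporter gene SPBC1271.10c lay 9377 nt from the meiRNA peak and 2976 nt from nc-tgp1. It had 13 Mei2-TAP tags against 0.5 untagged tags, at least 5.64-fold (interval from 3.07). At SPCC794.04c, also a transporter gene, 1 peak was assigned to the gene, with 15 Mei2-TAP tags against 4 untagged tags, and another to the overlapping SPNCRNA.6761, with 32.5 against 8.5.

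The coding genes with a peak spread over all 17 function classes that were made from keywords in the annotated products. Because the keywords were written with the list's products in view, the numbers of all genes in a class may be undercounted and are not compared with the background share of 1.96%. Metabolic enzymes had the most genes with a peak, 11, including aga1, which stands for the meiRNA peak. Translation and ribosome, and transcription and chromatin, had 10 each. Uncharacterized products had 8, and RNA decay and processing, transporters, and vesicle traffic had 7 each.

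**Figure D5:**
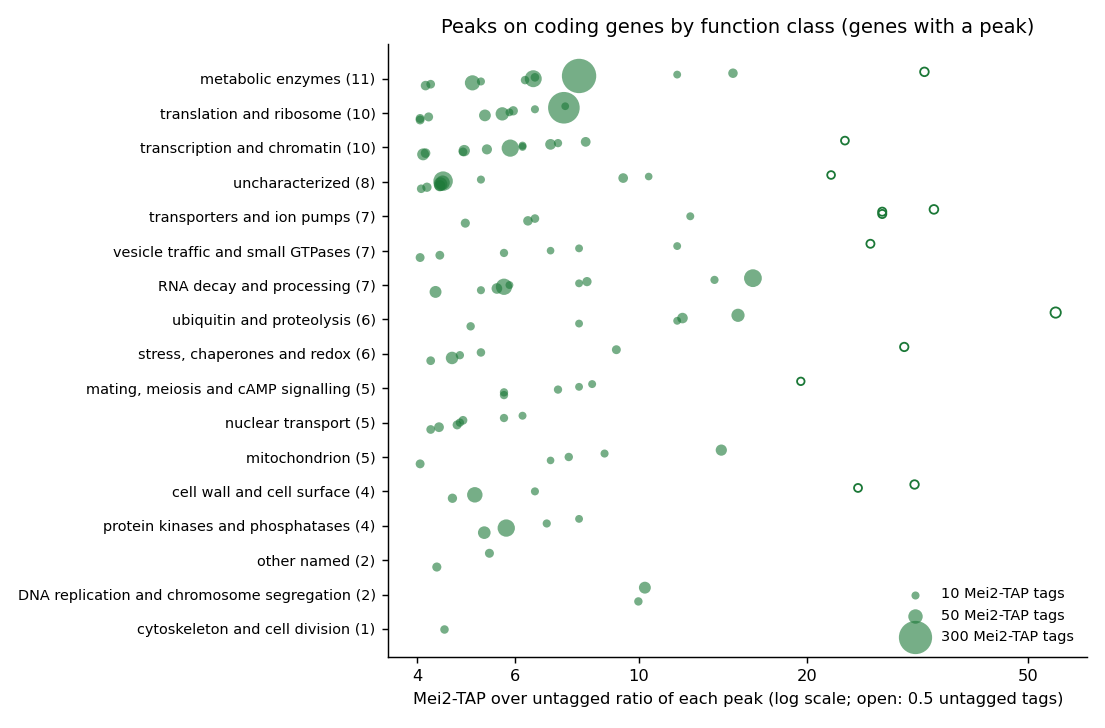
Mei2-TAP over untagged ratio (x axis, log scale) of each peak on a coding gene, by function class with its number of genes with a peak; point area grows with Mei2-TAP tags, open points have 0.5 untagged tags, and the meiRNA peak, assigned to aga1 among the metabolic enzymes, is not drawn. SPACUNK4.17 with 321 tags and tif51 with 270.5 tags are the largest points, and most points lie below a ratio of 10.

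Short lists of named genes are also counted below. They were chosen with earlier results of these data known, so that their shares, each given beside that of all coding genes, are a description of the lists only.

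In RNA decay and processing, 5 of the 9 peaks had an interval wholly above 2, against 36.7% of all 128 peaks. After mmi1 came dcp2, the catalytic subunit of the mRNA decapping complex, with 31.5 Mei2-TAP tags against 9.5 untagged tags, a ratio of 4.32 (2.04 to 10.1). SPBC609.01, a Dis3-like exonuclease gene, had 23.5 Mei2-TAP tags against 5.5 untagged tags, a ratio of 5.56 (2.14 to 17.6), and prp10, the SF3B1 subunit of the U2 snRNP, had 15.5 against 2.5, a ratio of 8.07 (2.11 to 53.3). dhp1, a 5′ to 3′ exoribonuclease, had 9 Mei2-TAP tags against 1.5 untagged tags. dis3, the exosome nuclease, lay under a peak with 11 Mei2-TAP tags against 3 untagged tags that was assigned to SPNCRNA.6374 on the other strand. Of 17 named RNA decay genes, 4 were assigned a peak (mmi1, dcp2, sts5 and dhp1), which is 23.5% against 1.96% of all coding genes, and the nuclear RNA surveillance genes rrp6, red1, erh1 and pab2 were among the rest.

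In translation, tif51 stood far above the rest. tif471, the eIF4G scaffold of cap binding, had 41.5 Mei2-TAP tags against 9.5 untagged tags, a ratio of 5.69 (2.77 to 13.0). gcn1, a regulator of the response to amino acid shortage, had 30.5 Mei2-TAP tags against 7.5 untagged tags, a ratio of 5.29 (2.33 to 13.8). tif52 had 16 Mei2-TAP tags against 3.5 untagged tags, and int6, a subunit of eIF3, had 14 against 4.5. The class also held 3 ribosomal protein genes, rpl301, rps102 and rpl2802, with 10 to 14.5 Mei2-TAP tags. Of 8 named translation factor genes, tif51, tif471, int6 and gcn1 were assigned a peak, which is 50% against 1.96% of all coding genes, and sum3, tif11, tef3 and tif1 were not.

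Among transcription and chromatin genes, rep2, rpa2 and set2 had the most tags. res1, a DNA-binding subunit of MBF, had 20.5 Mei2-TAP tags against 5 untagged tags, a ratio of 5.34 (1.95 to 18.2). Of 7 named MBF genes, rep2 and res1 were assigned a peak, which is 28.6% against 1.96% of all coding genes, and res2, cdc10, rep1, yox1 and nrm1 were not. The Sin3-type co-repressor genes pst3 and pst2 each had a peak, with 18.5 Mei2-TAP tags against 3 untagged tags for pst3 and 17.5 against 5.5 for pst2. mot1, a regulator of TATA-binding protein, had 13 Mei2-TAP tags against 3.5 untagged tags. Of 8 named chromatin genes, set2, pst2, pst3 and mot1 were assigned a peak, 50% against 1.96% of all coding genes, while bdf2 and snt2 lay under peaks assigned to genes on the other strand, SPNCRNA.2945 and hsr1. The hsr1 peak had 11 Mei2-TAP tags against 2 untagged tags.

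The genes that the keywords put in the mating, meiosis and cAMP class, which leaves out sme2, mmi1 and mug110, carried shallow peaks. The class held 5 genes with 6 peaks, together 59 Mei2-TAP tags against 10.5 untagged tags. All 6 were shallow and of 200 nt, and no interval in the class lay wholly above 2. Of all 74 shallow 200 nt peaks, only 10.8% had such an interval. cgs1, the regulatory subunit of protein kinase A, had 11 Mei2-TAP tags against 2 untagged tags, and cyr1, the adenylate cyclase that makes cAMP, had 11 against 2.5 in its 5′ UTR. prm1, which acts in fusion of mating cells, also had 11 Mei2-TAP tags against 2.5 untagged tags, and gnr1, a G protein beta subunit, had 9 against 1.5. Of 15 named cAMP and kinase genes, cgs1, cyr1, srk1 and sid2 were assigned a peak, 26.7% against 1.96% of all coding genes, and rad3 lay under the swi1 peak. The other named genes, among them pka1, pat1, ste11, sty1 and tor2, were not. Of 10 named mating genes, fus1 and prm1 had a peak, 20% against 1.96% of all coding genes, and mei3, ste6, map1, map2, mam1, mam2 and mfm1 were among those that did not. In the kinase and phosphatase class, sid2 had a ratio of 5.28 (2.50 to 12.4), and dcr2 and ckb2 had 10.5 and 9 Mei2-TAP tags against 2 and 1.5 untagged tags.

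Nuclear transport had 5 genes and 7 peaks, all shallow and of 200 nt, and none with an interval wholly above 2. Over all 74 shallow 200 nt peaks, that share was only 10.8%. msn5, an export karyopherin, had 18.5 Mei2-TAP tags against 5.5 untagged tags, a ratio of 4.38 (1.63 to 14.1). kap104, an import receptor, had 13 Mei2-TAP tags against 3.5 untagged tags, kap109, an export receptor, had 11 against 2.5, and rtp1 had 11 against 3. Of 9 annotated members of a named karyopherin list, kap104, kap109 and msn5 were assigned a peak, 33.3% against 1.96% of all coding genes. With nmd5, these are 4 of the 15 genes whose product names a karyopherin, importin or exportin, a family picked out after the list was seen.

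The ubiquitin and proteolysis class had 12 untagged tags over 6 peaks and a median ratio of 11.8 as measured, or 10.5 with ubc7 at its bound. Besides rbd4 and ubc7 it held btb1, a ubiquitin ligase substrate adaptor, with 23 Mei2-TAP tags against 2.5 untagged tags, a ratio of 12.0 (3.32 to 76.8). mub1, a subunit of the Mub1-Rad6-Ubr2 ubiquitin ligase, had 11.5 Mei2-TAP tags against 3 untagged tags, and pof6 and yme1 had 9 each against 1 and 1.5. For btb1, pof6 and yme1, also below 3 untagged tags, the floor was not applied, so the median of 10.5 still rests on few untagged reads. Transporters had a median ratio of 12.4 over 7 peaks as measured, but 3 of these rested on 0.5 untagged tags, and with these at their bounds the median was 5.64. pma1, the proton pump of the plasma membrane, had 17 Mei2-TAP tags against 3.5 untagged tags, and ctr4, a copper transporter subunit, had 12.5 against 2.5. These were the 2 of 7 annotated genes of a named transporter list with a peak, 28.6% against 1.96% of all coding genes. The pma2 peak, 10.5 against 0.5, lay almost wholly beside that gene.

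In the mitochondrial class, tim23 was followed by qcr6, a subunit of the cytochrome bc complex, with 14 Mei2-TAP tags against 4.5 untagged tags, SPAC9E9.15 with 11.5 against 2 and SPAC3G6.05 with 10 against 1.5. Of stress genes, hsp20, a small heat shock protein gene, had 35.5 Mei2-TAP tags against 10 untagged tags in its 3′ UTR, a ratio of 4.62 (2.24 to 10.5). ntp1, the neutral trehalase, had 14 Mei2-TAP tags against 2 untagged tags, a ratio of 9.11 (2.09 to 82.6). The glyoxalase genes glo1, hsp3105 and hsp3103 had 13 against 4, 12 against 3 and 11.5 against 0.5. In vesicle traffic, apl3 of the AP-2 adaptor had 14 Mei2-TAP tags against 4.5 untagged tags, and tcb1 and tcb3, tricalbins that tether ER to plasma membrane, had 11 against 2.5 and 9 against 1.5. irs4 had 10 Mei2-TAP tags against 0.5 untagged tags, at least 4.34-fold (interval from 2.25).

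Of cell wall and surface genes, aah1, a cell-surface glycosyl hydrolase, had 16 Mei2-TAP tags against 4.5 untagged tags, pfl3 had 10 against 2, and the uvi15 peak beside that gene had 9.5 against 0.5. Among metabolic enzymes, gua1, the IMP dehydrogenase of guanine nucleotide synthesis, had 17.5 Mei2-TAP tags against 5.5 untagged tags, and SPAC4H3.08, a predicted 3-hydroxyacyl-CoA dehydrogenase, had 17 against 1.5, a ratio of 14.8 (2.98 to 219). The replication and segregation class held SPAC3H8.04, with 31.5 Mei2-TAP tags against 4 untagged tags, a ratio of 10.3 (3.63 to 39.9), and swi1 of the fork protection complex, with 11.5 against 1.5. fim1, fimbrin, was the only gene of the cytoskeleton class, with 12 Mei2-TAP tags against 3.5 untagged tags. After pdh1 and SPAC57A7.05, the uncharacterized genes with the most tags were SPAC56F8.15, with 27 against 8, and aim29, with 18 against 2.5. The 2 genes that no keyword named, SPAC29B12.11c and wdr21, had 15 Mei2-TAP tags against 4.5 untagged tags and 14.5 against 3.5.

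The Mmi1 core letters, searched on both strands, stood in 74 of the 128 peaks, or 57.8%. Because wide peaks have more room, the 200 nt peaks were set against windows of the same 201 nt: 56.6% of them (exact interval 44.7 to 67.9) held the letters, against 41.3% of all 62545 windows of the nuclear genome. The genome windows had a median GC content of 36.3%, against 39.3% in the 200 nt peaks. Among the 57 peaks of 200 nt in coding exons, 49.1% (35.6 to 62.7) held the letters, against 37.8% of 30923 coding windows, with a median GC content of 39.8% in the peaks and 39.3% in the windows. On the strand of the gene alone the shares were 29.8% (18.4 to 43.4) and 22.2%. For coding exons, the interval included the share of the windows on either strand and on the gene strand alone. These intervals cover counting error over peaks only.

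meiRNA held by far the most matches, 36, of which 23 were on the strand of sme2. That was 9.55 per kb on both strands together, against 2.69 per kb of all genome windows. On the sme2 strand there were 6 matches in the 653 nt of sme2 under the peak, 5 of them in the printed stretch, and the others on that strand lay in the part of the peak downstream of sme2. tif51 and nc-tgp1 followed with 6 matches each, and rbd4 and SPBC609.01 held 4. The mug110 peak held 1, on the strand of mug110, and tim23 and ubc7 held none. A match in these windows is a description of the letters and does not show that Mmi1 or Mei2 was bound there.

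Of the 128 Mei2 peaks, 18 overlapped a peak of the Msa1-TAP list, which is 14.1% of the Mei2 list, and 19 of the 140 Msa1-TAP peaks, 13.6% of that list, overlapped a Mei2 peak. Both lists use the same untagged library. Any shared base counted as an overlap, so wide peaks had more room for one, and this was not adjusted for. The shared peaks included 14 of the 52 wide peaks and 4 of the 76 of 200 nt. They included the peaks named for meiRNA, SPACUNK4.17, nc-tgp1 and snR30 and the first leu2 peak. The meiRNA peak was 3769 nt wide, with 653 nt in sme2, and which part of it was shared was not examined. By qRT-PCR and by CLIP-Seq, the study found meiRNA not enriched with Msa1-TAP.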

How the data were processed

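Members and gene lists were chosen with earlier results of these data known. STAR, SAMtools, deepTools, HOMER and the ASM294v2 build are named in the submitters' processing notes, with versions not given in the sources used here. The authors aligned the reads with STAR and called peaks by HOMER with untagged as control. The deposited tag signal is scaled to 10000000 tags. The deposited expected counts are unscaled tags in steps of 0.5. The deposited width of each region was used as given. The authors' fold, p-value, peak score and clonal ratio columns were not used.

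Each library's total was obtained as scaled over unscaled tags (Mei2-TAP 194019, untagged 252533 to 252542), and untagged tags from the scaled control values, which lay within 0.2 steps of whole 0.5-tag steps in 128 of 128 peaks. The untagged total comes from the Msa1 list. Precision was limited by depth: intervals are exact Clopper-Pearson 95% intervals, and the floor was 3 tags. The interval was tried on simulated whole-tag counts without selection by ratio. Its coverage for selected peaks with counts in 0.5-tag steps was not tested. Genes came from the RefSeq ASM294v3 annotation, whose nuclear chromosomes have the names of the files; 0 peaks passed a chromosome end. On either strand, each peak went to the gene sharing most bases with it, then coding, then shorter. Position was the midpoint of the part inside the gene. Deep means at least 30 Mei2-TAP tags. Genes named were the 15 deepest peaks, the 10 with the highest lower bound, the 10 widest, every gene with over 1 peak, the 3 lowest and 3 highest ratios, the 3 shallowest, members of 8 gene lists and up to 4 per class; others, such as apl3 and qcr6 for shared values and SPBC1271.10c for its place, were added after their values were seen. Python 3.11.15, numpy 2.4.6, pandas 2.3.3, scipy 1.17.1 and matplotlib 3.10.9 were used. Function classes came from product keywords, revised with the products in view. No test between libraries was made. Alternatives for the interval, added tags, width, depth, gene assignment and strand were tried. Identical copies of the lists, and the replicate libraries, were not analysed here.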

Additional observations from a re-analysis of the deposited data

How the results depend on the processing

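No paired analysis was possible because the list rests on 1 tagged and 1 untagged library. Counting each read as a unit gave 104 peaks with the interval wholly above 2 and 21 above 4, in place of 47 and 8; the reads of a pair are not independent. Adding 1 tag to both libraries on one scale lowered the median ratio of 5.86 to 4.45, and taking only peaks with at least 10 Mei2-TAP tags lowered it to 5.29. With at least 10 tags, the median ratio of wide peaks over that of 200 nt peaks was 1.15, in place of 0.956. A width limit of 300 nt left 33 wide peaks in place of 52, and a depth limit of 50 tags left 17 deep peaks in place of 29. Counting every overlapping gene gave 14 genes with more than 1 peak, in place of 9, and a ratio of at least 8 left 1. That limit also left 31 coding genes in place of 100, and 0 in place of 12 function classes with 5 or more genes. Taking the part with the most bases left 2 intron peaks in place of 4. On the strand of the assigned gene alone, 35.2% of peaks held the Mmi1 core letters, in place of 57.8%. The other 40 alternatives moved counts by no more than 1.5 times, or left a value inside its interval over peaks. The farthest of these counts were 6 genes with more than 1 peak and 8 classes with 5 or more genes, at no fewer than 10 tags, and 12 peaks shared with Msa1 in place of 18, at 50% overlap. Of the alternatives for single function classes, 19 moved and 49 did not. The settings without the 0.5-tag peaks and with at least 50% of a peak in its gene were chosen after seeing the data. Depth limits most ratios: 59 of 128 peaks had fewer than 3 untagged tags.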
